A study of Mus musculus with 6 samples.

Results

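The genes described here encode the enzymes that attach glucuronic acid, sulfate or glutathione to small molecules, together with the carboxylesterases that split esters and amides. They are the genes with a single annotated symbol beginning Ugt1, Ugt2, Ugt3, Sult, Gsta, Gstm, Gstp, Gstt, Gsto, Gstk, Mgst or Ces1 to Ces5. This rule goes by name but was set with earlier results of these data known. Where a gene had several probe sets, that of highest mean level was read. This gave 58 of the 18193 genes measured: 10 UDP-glucuronosyltransferases, 13 sulfotransferases, 19 soluble and 3 microsomal glutathione transferases, and 13 carboxylesterases. The arrays held RNA of cells sorted by fluorescence from the enzymatically dissociated intestine of adult Swiss Webster mice. In 3 samples the cells were CCK-EGFP cells, which carry green fluorescence in a line where it marks expression of the hormone gene cholecystokinin, and in the other 3 an equal number of non-fluorescent (non-EGFP) cells. Every sample, the non-EGFP ones included, came from CCK-EGFP transgenic animals, and the labels give neither the construct behind the transgene nor whether replicates were different mice, so the spread between arrays may be technical. The non-EGFP cells were sorted for lack of fluorescence and not by type, so they are a mixture.

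In the second phase of detoxification a reactive or lipophilic compound receives a polar group, which usually ends its action and lets it be exported. UDP-glucuronosyltransferases work in the endoplasmic reticulum with UDP-glucuronic acid, sulfotransferases in the cytosol with the sulfate donor PAPS, and glutathione transferases with the tripeptide glutathione. Carboxylesterases hydrolyse drugs and dietary esters in the endoplasmic reticulum, and several also act on glycerolipids. In the gut wall these enzymes are known mainly from absorptive enterocytes, where they meet food-borne compounds, bile acids and steroids first.

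Values are log2 intensities from RMA, on which 1 unit is a factor of 2, and differences are CCK-EGFP minus non-EGFP. A background level of 4.60 was taken from olfactory and vomeronasal receptor genes (the 95th percentile of 71 gene means), and 42 of the 58 genes had a mean above it. As a check of the labelled cell type, 14 of 14 enteroendocrine markers were higher in CCK-EGFP cells, with list means of 12.97, 12.85 and 12.68 on the CCK-EGFP arrays against 8.64, 8.27 and 8.67 on the non-EGFP arrays. The labels describe all 6 samples, the non-EGFP ones too, as enteroendocrine. Of 8 tuft cell markers 5 were also higher, and of 7 hepatocyte markers 2 (Ttr and Alb) were higher and 1 lower. Tuft cell marker means were 9.03, 8.43 and 7.69 on the CCK-EGFP arrays, lowest on replicate 3, against 5.55, 6.08 and 6.41 on the non-EGFP arrays. With the replicate number as a block, 4 tuft cell markers were higher and no hepatocyte marker was lower. Enterocyte markers were present in both groups, with list means of 11.67, 11.78 and 12.60 on CCK-EGFP replicates 1, 2 and 3 against 12.96, 13.09 and 13.03 on the non-EGFP arrays, and none of the 20 had a group mean below the background level. CCK-EGFP replicate 3 was thus the CCK-EGFP array closest to the non-EGFP arrays in enterocyte markers. Of these 20 markers 6 were lower (4 with the replicate block) and none higher. Marker means of T and NK lymphocytes were likewise highest on replicate 3 of each group, at 8.20, 8.97 and 10.29 on the CCK-EGFP arrays against 9.19, 9.24 and 10.05 on the non-EGFP arrays, with none of 9 past the threshold. Those of Paneth cells were 8.24, 7.78 and 10.34 against 9.98, 9.29 and 11.20 (CCK-EGFP against non-EGFP), with none of 5 past it, or 4 lower with the replicate block. In RNA of sorted pools, fewer cells of a type and less RNA per cell cannot be told apart.

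Of the 58 genes, 18 were lower in CCK-EGFP cells (31%), 2 were higher (3.45%) and 38 did not pass the test (limma, Benjamini-Hochberg adjusted p under 0.05 over all genes). Across all 18193 genes, 10.2% were lower and 14.0% higher. The estimated difference was below 0 for 52 of the 58, with a median of -0.72 against -0.17 over all genes, and for the 42 genes with a mean above the background level the median was -0.95 against 0.05 over all such genes. In 31 genes every CCK-EGFP array lay below every non-EGFP array, and in 2 every CCK-EGFP array lay above, where 28.1% and 21.8% of all genes did so. The higher genes were Gsto2 and Gstt1, and the most strongly lower ones were Ugt2b38, Ces2b, Ugt2a3 and Sult2b1.

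**Figure D1:**
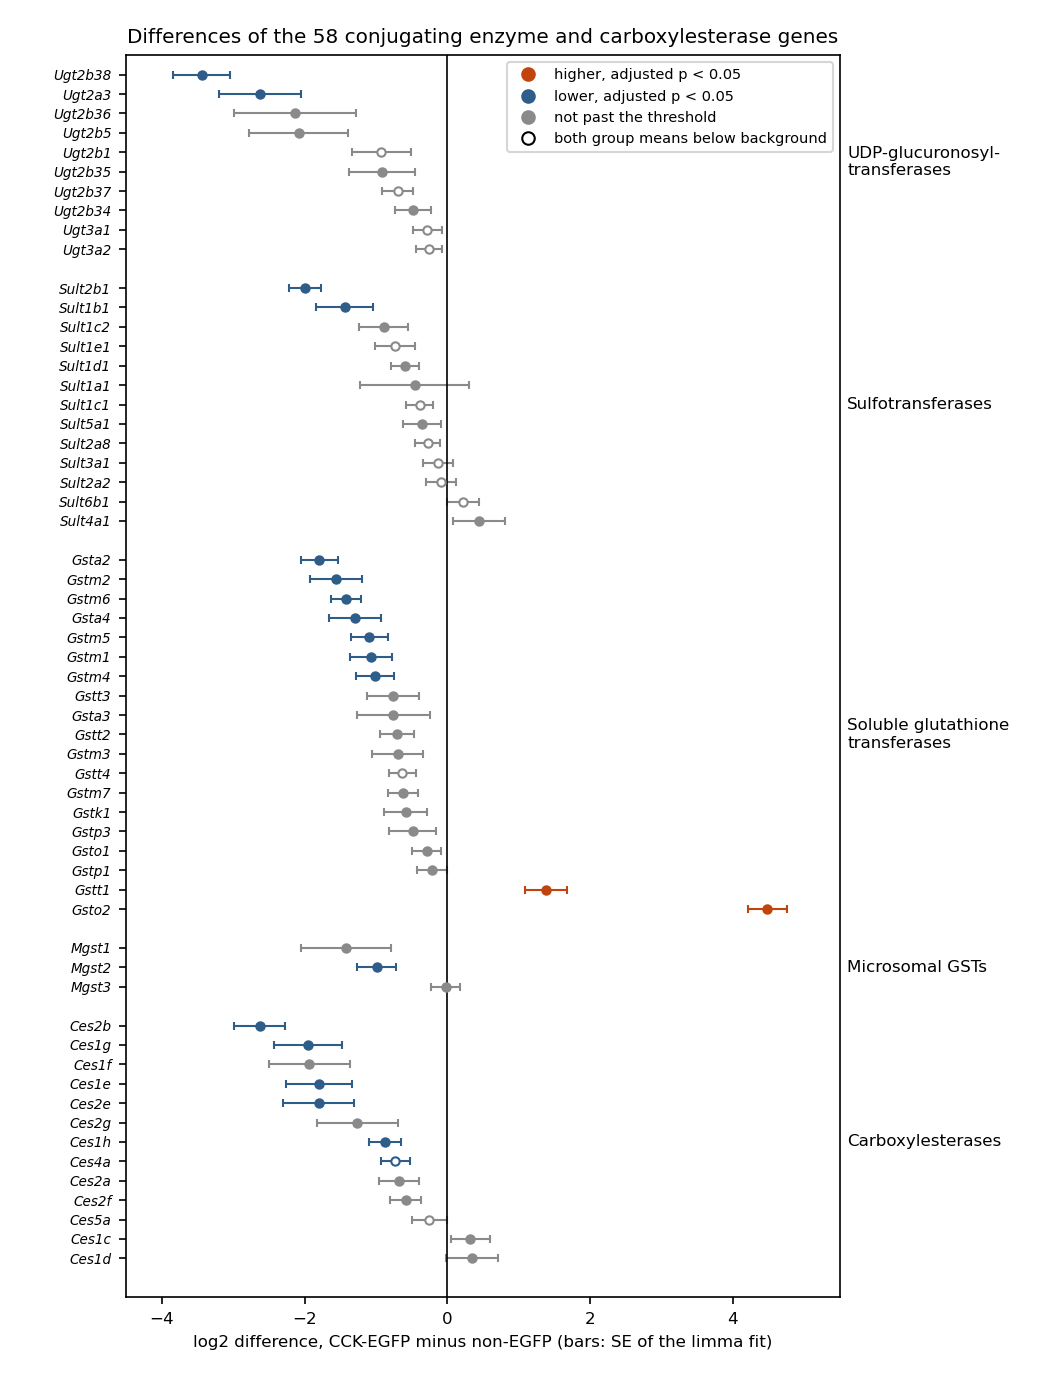
Log2 difference (CCK-EGFP minus non-EGFP, points, with the SE of the limma fit) of each of the 58 genes, grouped by enzyme family. Of the 58, 52 lie left of 0, the 18 blue points passed the test as lower, and the 2 orange points, Gstt1 and Gsto2, passed as higher.

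Of the 20 calls, 6 held whichever of the 6 arrays was removed: Gsto2 among the higher genes, and Ugt2b38, Ces2b, Sult2b1, Gsta2 and Gstm6 among the lower ones. The number of lower genes ranged from 5 (without CCK-EGFP replicate 2 or non-EGFP replicate 2) to 19 (without CCK-EGFP replicate 3). It was 6 without CCK-EGFP replicate 1, and 8 and 10 without replicates 1 and 3 of the non-EGFP cells. Of all 18193 genes, 666, 505 and 1384 were lower without CCK-EGFP replicates 1, 2 and 3. Without non-EGFP replicates 1, 2 and 3 the numbers over all genes were 1021, 880 and 1962, against 1851 on all 6 arrays. In a fit that kept replicate numbers as blocks, 17 members were lower and 2 higher, against 8.43% and 12.9% of all genes. Of the 18 lower calls 12 remained under the block, 6 were lost and 5 others were gained. When each array was centred on its own median, which moved the median difference of all genes to -0.42, the members split into 2 higher and 28 lower, and all genes into 11.6% higher and 19.8% lower.

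**Figure D2:**
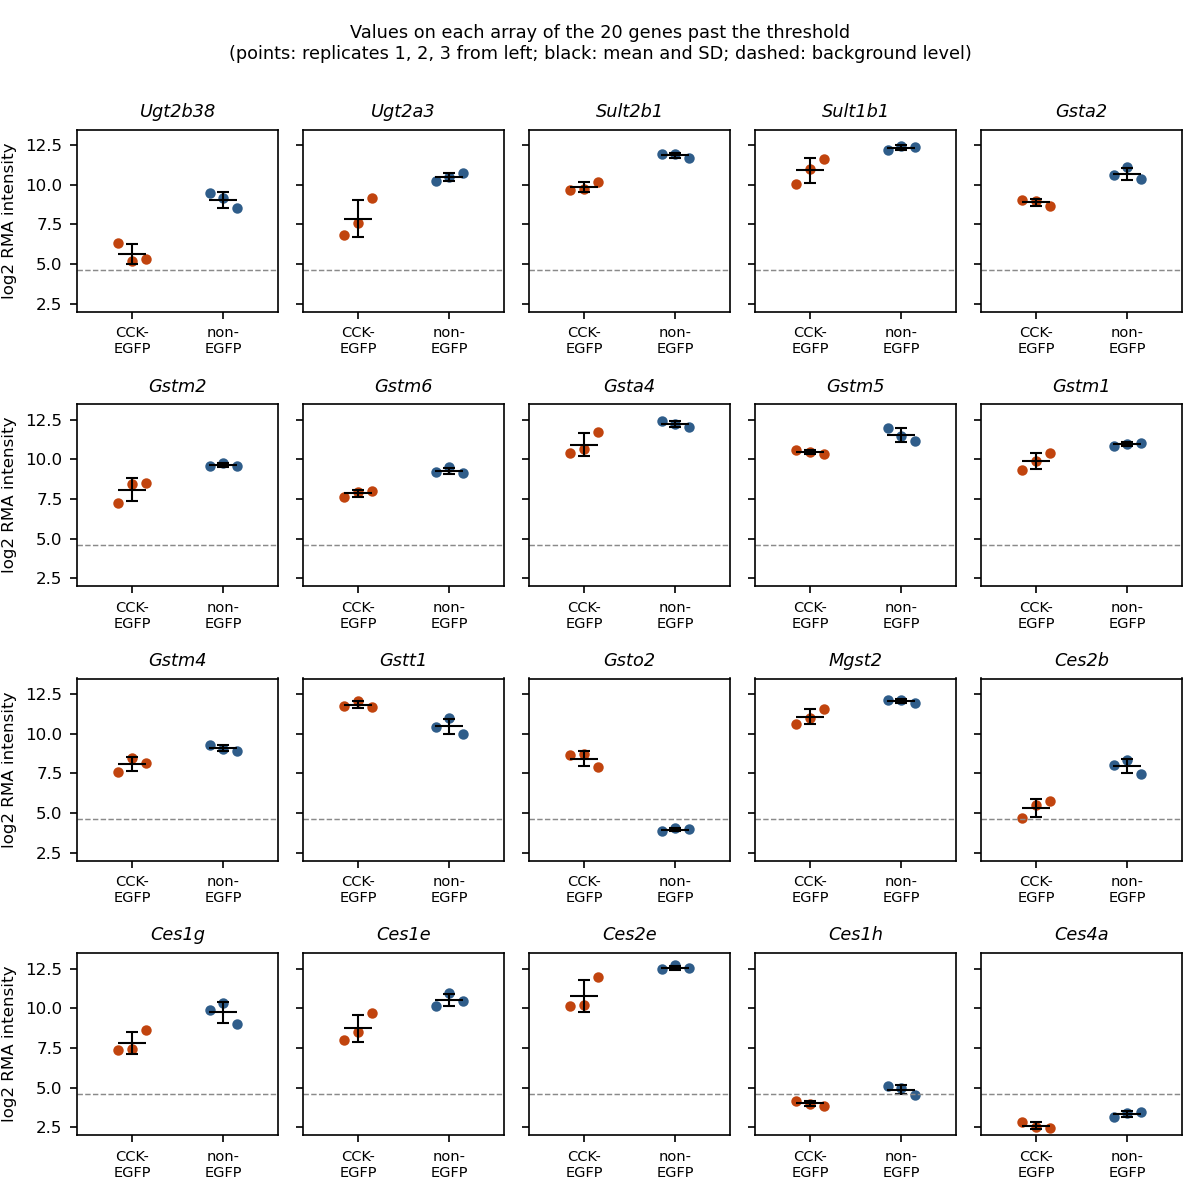
Log2 RMA intensity of the 20 genes past the threshold on each array (points, replicates 1 to 3 from left to right; black, mean and SD, n = 3; dashed, background level). Gsto2 lies near 8.4 on average in CCK-EGFP cells and below the dashed line in non-EGFP cells, and in all 20 genes the groups do not overlap.

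Gsto2 showed the largest rise among the members. This omega class glutathione transferase, which reduces dehydroascorbate to vitamin C, read 8.69, 8.74 and 7.90 in CCK-EGFP cells, against 3.86, 4.03 and 3.99 in non-EGFP cells. The CCK-EGFP arrays lay far above the background level and the non-EGFP arrays below it. Gsto2 averaged 8.44 ± 0.47 in CCK-EGFP cells, against 3.96 ± 0.09 in non-EGFP cells (SD, n = 3 each), a log2 difference of 4.48 (SE 0.27, limma adjusted p = 0.000271), or at least 14.4-fold against the background level. Its relative Gsto1, a thiol transferase that also reduces arsenic compounds, read 12.63, 12.64 and 12.95 in CCK-EGFP cells, against 13.15, 13.11 and 12.83 in non-EGFP cells. These ranges overlapped, and the difference of -0.29 did not pass (adjusted p = 0.296). A second probe set of Gsto1 gave -0.62, and Gsto2 has 1 probe set.

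Gsto1 and Gsto2 lie next to each other on chromosome 19 with no other protein-coding gene between them. The 250 bases before the annotated start of each (RefSeq, GRCm38.p6) are shown because these neighbours moved differently. The windows are chr19:47865295-47865544 for Gsto2, which has another annotated start, and chr19:47854723-47854972 for Gsto1, both on the plus strand. Capitals mark matches to the motifs searched.
Gsto2: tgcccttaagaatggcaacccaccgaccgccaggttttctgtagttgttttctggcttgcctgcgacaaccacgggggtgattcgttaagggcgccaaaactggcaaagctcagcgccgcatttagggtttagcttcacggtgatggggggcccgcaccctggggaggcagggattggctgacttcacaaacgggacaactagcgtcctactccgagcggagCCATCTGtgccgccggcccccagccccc
Gsto1: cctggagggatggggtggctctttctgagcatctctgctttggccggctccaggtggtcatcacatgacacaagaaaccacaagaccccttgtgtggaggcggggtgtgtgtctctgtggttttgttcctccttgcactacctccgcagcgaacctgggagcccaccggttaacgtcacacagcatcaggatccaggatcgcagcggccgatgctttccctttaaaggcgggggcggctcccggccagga
The capitals in Gsto2 are the reverse complement of CAGATGG, an E box of the kind bound by NEUROD1. The window before the other Gsto2 start and the Gsto1 window hold no match to any of the 7 motifs. This E box also lies before Ces2e, Ces2f, Gstm6 and Ugt2b36, whose estimates were below 0 (-1.80, -0.59, -1.42 and -2.13).

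Gstt1, a theta class enzyme that conjugates halogenated methanes, was the other higher gene. It read 11.77, 12.10 and 11.68 in CCK-EGFP cells, against 10.42, 10.99 and 10.00 in non-EGFP cells, with no overlap. The log2 difference was 1.38 (SE 0.29, limma adjusted p = 0.0196), or 2.61-fold. The call ended on removal of replicate 1 of either group or of CCK-EGFP replicate 2 (adjusted p up to 0.0797). The other theta class genes had differences below 0 that did not pass, at -0.77 for Gstt3 (8.31 ± 0.34 in CCK-EGFP cells, against 9.07 ± 0.64 in non-EGFP cells), -0.70 for Gstt2 and -0.63 for Gstt4, whose means were below the background level. They lie on chromosome 10 in the order Gstt3, Gstt1, Gstt4 and Gstt2, and Gstt1 sits directly between Gstt3 and Gstt4. Windows before the start of Gstt1 (chr10:75797732-75797981) and of its neighbour Gstt3 (chr10:75781423-75781672, the first of 2 annotated starts), both on the minus strand, are given for this contrast.
Gstt1: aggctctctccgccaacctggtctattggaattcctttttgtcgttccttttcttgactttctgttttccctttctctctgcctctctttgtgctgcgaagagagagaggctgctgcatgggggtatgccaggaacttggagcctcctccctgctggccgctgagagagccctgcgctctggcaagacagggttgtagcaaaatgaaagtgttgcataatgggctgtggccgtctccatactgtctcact
Gstt3: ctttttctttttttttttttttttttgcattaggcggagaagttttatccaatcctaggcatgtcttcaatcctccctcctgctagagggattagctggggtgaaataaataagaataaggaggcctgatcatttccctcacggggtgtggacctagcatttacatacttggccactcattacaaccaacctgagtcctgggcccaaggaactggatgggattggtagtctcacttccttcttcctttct
Neither window holds a match to the 7 motifs.

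Alpha class glutathione transferases conjugate lipid peroxidation products and steroids. Lower calls fell on 2 of the 3 measured (66.7%, against 10.2% of all genes, or 1 with the replicate block). Gsta2 read 9.04, 9.01 and 8.66 in CCK-EGFP cells, against 10.63, 11.11 and 10.35 in non-EGFP cells. All CCK-EGFP arrays lay below all non-EGFP arrays, and replicate 3 was the lowest of them (log2 difference -1.79, SE 0.26, limma adjusted p = 0.0055). Gsta4, which prefers the aldehyde 4-hydroxynonenal, read 10.38, 10.68 and 11.73 in CCK-EGFP cells, against 12.41, 12.23 and 12.04 in non-EGFP cells. Its difference of -1.29 passed (adjusted p = 0.0475), but not with the replicate number as a block (adjusted p = 0.0763), and the call ended without any array other than CCK-EGFP replicate 3 (up to 0.147). Gsta3 averaged 5.36 ± 0.86 in CCK-EGFP cells, against 6.11 ± 0.64 in non-EGFP cells and did not pass.

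Mu class genes were lower in 5 of 7 cases (71.4%, against 10.2% of all genes, or 4 with the replicate block). The estimates of all 7 were below 0, from -1.56 to -0.62. Gstm6 read 7.62, 7.93 and 8.01 in CCK-EGFP cells, against 9.18, 9.49 and 9.13 in non-EGFP cells (log2 difference -1.42, SE 0.21, limma adjusted p = 0.00583). For Gstm2 the CCK-EGFP arrays read 7.25, 8.44 and 8.54 and the non-EGFP arrays 9.57, 9.78 and 9.56 (difference -1.56, adjusted p = 0.0268). Gstm5 read 10.58, 10.44 and 10.32 against 11.98, 11.49 and 11.14 (CCK-EGFP against non-EGFP, difference -1.09, adjusted p = 0.0271). In each of these genes the groups were separate. Gstm1, the main mu class enzyme of mouse liver, read 9.36, 9.93 and 10.39 in CCK-EGFP cells, against 10.83, 10.99 and 11.06 in non-EGFP cells (difference -1.07, adjusted p = 0.0412), and its 4 probe sets ranged from -1.11 to -0.79. All 4 sets of Gstm1 pointed the same way. Gstm4 differed by -1.01 (adjusted p = 0.0398, or 0.0712 with the replicate block). Gstm3 read 11.27, 12.13 and 12.61 in CCK-EGFP cells, against 12.51, 12.72 and 12.86 in non-EGFP cells, overlapped and did not pass (adjusted p = 0.186), although its second probe set differed by -1.69. Gstm7 differed by -0.62 and did not pass.

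The call of Gstm4 ended when any array was left out (adjusted p up to 0.104). Gstm1 lost its call without any array other than CCK-EGFP replicate 3 (up to 0.117), Gstm2 without CCK-EGFP replicate 2 or any non-EGFP array (up to 0.0775), and Gstm5 on removal of non-EGFP replicate 2 or of any CCK-EGFP array (up to 0.093). Mu class transcripts are similar in sequence. The probe sets used for Gstm1 and Gstm3 carry the array maker's suffix for probes that may match other transcripts, so part of a signal may come from a relative.

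The pi class, represented by Gstp1, an abundant enzyme of epithelia, did not pass. It read 12.93, 13.20 and 13.37 in CCK-EGFP cells, against 13.17, 13.41 and 13.56 in non-EGFP cells, with overlapping ranges and a difference of -0.21 (adjusted p = 0.467). Gstp3 differed by -0.48 (adjusted p = 0.296). The kappa enzyme Gstk1, found in mitochondria and peroxisomes, read 11.10, 11.55 and 12.19 in CCK-EGFP cells, against 12.27, 12.26 and 12.07 in non-EGFP cells. Those groups overlapped through CCK-EGFP replicate 3 alone, and the difference of -0.58 did not pass (adjusted p = 0.188).

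Microsomal glutathione transferases are membrane proteins unrelated in sequence to the soluble classes. Mgst2, which can also form leukotriene C4, read 10.65, 11.03 and 11.59 in CCK-EGFP cells, against 12.16, 12.13 and 11.93 in non-EGFP cells. The groups were separate and the difference was -0.99 (SE 0.27, limma adjusted p = 0.0443, or 0.0744 with the replicate block), a call that ended without any array other than CCK-EGFP replicate 3 (up to 0.134). Mgst1 read 7.80, 8.79 and 10.20 in CCK-EGFP cells, against 9.92, 10.07 and 11.06 in non-EGFP cells. It overlapped and did not pass (difference -1.42, adjusted p = 0.142), but was lower with the replicate block (adjusted p = 0.0395). Mgst3 was level on the probe set read, at 12.36, 12.62 and 12.21 in CCK-EGFP cells, against 12.28, 12.38 and 12.60 in non-EGFP cells (difference -0.02, SE 0.20). A second, dim probe set gave -0.45 without overlap, with a CCK-EGFP mean below the background level. It did not pass when each probe set was tested alone (limma adjusted p = 0.191).

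Among UDP-glucuronosyltransferases, 2 of 10 were lower (20%, against 10.2% of all genes, or 5 with the replicate block). None was higher, and all 10 estimates were below 0. Ugt2b38, an enzyme of the 2B subfamily, showed the largest fall of all 58 genes. It read 6.35, 5.21 and 5.29 in CCK-EGFP cells, against 9.49, 9.16 and 8.53 in non-EGFP cells, so the groups lay more than 2 units apart. The log2 difference was -3.44 (SE 0.40, limma adjusted p = 0.00242), or 10.9-fold lower. Ugt2a3, whose human counterpart glucuronidates bile acids, read 6.83, 7.61 and 9.18 in CCK-EGFP cells, against 10.25, 10.48 and 10.77 in non-EGFP cells. Its groups were also separate, with CCK-EGFP replicate 3 nearest to the non-EGFP arrays, and the difference was -2.62 (SE 0.58, adjusted p = 0.0217). The call of Ugt2a3 ended without any array other than CCK-EGFP replicate 3 (adjusted p up to 0.0821).

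Ugt2b38 and Ugt2a3 are direct neighbours on chromosome 5. The 250 bases before their starts, chr5:87424204-87424453 and chr5:87337196-87337445 on the minus strand, are shown because both genes fell.
Ugt2b38: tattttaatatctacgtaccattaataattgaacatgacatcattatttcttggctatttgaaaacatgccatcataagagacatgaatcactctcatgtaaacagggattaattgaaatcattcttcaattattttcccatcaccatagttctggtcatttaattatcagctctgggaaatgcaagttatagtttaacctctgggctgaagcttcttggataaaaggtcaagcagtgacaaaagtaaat
Ugt2a3: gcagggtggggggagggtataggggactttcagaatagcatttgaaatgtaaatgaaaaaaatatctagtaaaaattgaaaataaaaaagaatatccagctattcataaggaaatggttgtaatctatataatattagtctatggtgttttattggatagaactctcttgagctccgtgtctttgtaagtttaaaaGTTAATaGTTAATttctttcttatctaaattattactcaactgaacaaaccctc
Both are poor in G and C, at 32.4% and 30.4%, against 60.8% before Gsto2. The capitals in Ugt2a3 are a pair of GTTAAT letters, the core of a site for the enterocyte and liver factor HNF1. Among the 22 windows before lower genes, 1 held this core, against 6.43% of all windows. Ugt2b38 holds no match.

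Further 2B genes were variable within the CCK-EGFP group. Ugt2b5 read 6.72, 7.41 and 9.50 in CCK-EGFP cells, against 9.92, 9.56 and 10.41 in non-EGFP cells (difference -2.08, adjusted p = 0.0735, or 0.0444 with the replicate block). Ugt2b36 read 6.29, 4.47 and 7.88 in CCK-EGFP cells, against 8.16, 7.75 and 9.13 in non-EGFP cells (difference -2.13, adjusted p = 0.111, or 0.0359 with the block). Ugt2b35 read 7.49, 7.84 and 8.86 in CCK-EGFP cells, against 8.32, 8.99 and 9.62 in non-EGFP cells (difference -0.92, adjusted p = 0.183, or 0.0395 with the block). In all 3 genes CCK-EGFP replicate 3 was the highest CCK-EGFP array, and in Ugt2b36 and Ugt2b35 it overlapped the non-EGFP range. Ugt2b34 did not pass, at 11.71, 11.88 and 12.35 in CCK-EGFP cells, against 12.14, 12.55 and 12.67 in non-EGFP cells (difference -0.47, adjusted p = 0.2). Its second probe set gave -0.67 without overlap and did not pass when each probe set was tested alone (limma adjusted p = 0.0731). Ugt2b1, Ugt2b37, Ugt3a1 and Ugt3a2 had means below the background level in both groups.

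Of 13 sulfotransferases, 2 were lower (15.4%, near the 10.2% of all genes) and none was higher. Means below the background level in both groups were seen in 6. Sult2b1, which sulfates cholesterol and pregnenolone, read 9.67, 9.74 and 10.20 in CCK-EGFP cells, against 11.97, 11.94 and 11.67 in non-EGFP cells. The groups stood well apart on every array, with a log2 difference of -1.99 (SE 0.22, limma adjusted p = 0.0021), or 3.97-fold lower. Sult1b1, an enzyme for thyroid hormones and small phenols, read 10.09, 11.00 and 11.67 in CCK-EGFP cells, against 12.19, 12.47 and 12.41 in non-EGFP cells (difference -1.43, SE 0.40, adjusted p = 0.0443). That call ended without any array other than CCK-EGFP replicate 3 (up to 0.118).

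Sult1d1, a catecholamine sulfotransferase of the mouse, read 11.82, 11.83 and 12.22 in CCK-EGFP cells, against 12.57, 12.54 and 12.53 in non-EGFP cells. These did not overlap, but the difference of -0.59 did not pass (adjusted p = 0.0669). Its second probe set differed by -0.94 and was lower when each probe set was tested alone (limma adjusted p = 0.0223, or 0.0463 with the replicate block). Sult1c2 read 6.09, 6.20 and 6.79 against 6.61, 7.49 and 7.64 (CCK-EGFP against non-EGFP, adjusted p = 0.104). Sult4a1, a brain-enriched member without a settled substrate, read 5.22, 5.57 and 4.22 in CCK-EGFP cells, against 4.68, 4.38 and 4.63 in non-EGFP cells (adjusted p = 0.378), and its other probe set went the other way (-0.58). The phenol sulfotransferase Sult1a1 was spread widely in both groups, at 3.09, 4.82 and 4.86 in CCK-EGFP cells, against 3.51, 6.09 and 4.52 in non-EGFP cells (adjusted p = 0.667). Sult1c1, the estrogen sulfotransferase Sult1e1, the hydroxysteroid enzymes Sult2a2 and Sult2a8, Sult3a1 and Sult6b1 were those below the background level in both groups. The CCK-EGFP means of Sult1a1 and Sult5a1 and the non-EGFP mean of Sult4a1 also lay below that level, and none of these genes passed.

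Carboxylesterases were lower in 6 of 13 cases (46.2%, against 10.2% of all genes, or 4 with the replicate block) and higher in none. Ces2b read 4.69, 5.53 and 5.75 in CCK-EGFP cells, against 8.04, 8.35 and 7.47 in non-EGFP cells, a clear gap (log2 difference -2.63, SE 0.36, limma adjusted p = 0.00473, or 6.19-fold lower). The Ces2 enzymes are the main esterases of the small intestine. Ces2e read 10.18, 10.20 and 11.97 in CCK-EGFP cells, against 12.47, 12.72 and 12.55 in non-EGFP cells (difference -1.80, adjusted p = 0.0437, or 0.0531 with the replicate block). Ces2a, which hydrolyses drugs and diglycerides, read 10.98, 11.44 and 11.89 in CCK-EGFP cells, against 12.35, 12.02 and 11.96 in non-EGFP cells and did not pass (difference -0.68, adjusted p = 0.119). Ces2e and Ces2a each had CCK-EGFP replicate 3 close to the non-EGFP arrays. Ces2g (-1.26) did not pass, nor did Ces2f, whose CCK-EGFP mean lay below the background level (a bound of -0.55 on the difference).

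The Ces1 genes differed among themselves. Ces1e read 7.98, 8.52 and 9.70 in CCK-EGFP cells, against 10.17, 10.95 and 10.47 in non-EGFP cells (difference -1.80, adjusted p = 0.036). Ces1g, which acts on hepatic lipids in the mouse, read 7.37, 7.41 and 8.61 in CCK-EGFP cells, against 9.87, 10.36 and 9.00 in non-EGFP cells (difference -1.95, adjusted p = 0.0302, or 0.0702 with the replicate block). Ces1f read 8.68, 9.27 and 10.96 in CCK-EGFP cells, against 11.40, 11.49 and 11.82 in non-EGFP cells (difference -1.93, adjusted p = 0.0513, or 0.0388 with the block), from a probe set that may match other transcripts. In all 3 the groups were separate and CCK-EGFP replicate 3 was the highest CCK-EGFP array. Their neighbours Ces1c, a plasma esterase, and Ces1d, a triacylglycerol hydrolase, had estimates above 0. Ces1c read 9.10, 8.99 and 8.72 against 8.48, 8.26 and 9.11 (CCK-EGFP against non-EGFP, difference 0.32, adjusted p = 0.387). Ces1d read 9.78, 10.13 and 9.79 in CCK-EGFP cells, against 8.76, 9.91 and 10.01 in non-EGFP cells (difference 0.34, adjusted p = 0.498), and its 3 probe sets ranged from 0.26 to 0.47. Both overlapped.

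Ces1h and Ces4a passed at low levels. Ces1h read 4.16, 3.97 and 3.86 in CCK-EGFP cells, against 5.10, 4.98 and 4.54 in non-EGFP cells (adjusted p = 0.0336), at least 1.21-fold lower against the background level. Ces4a read 2.82, 2.52 and 2.42 in CCK-EGFP cells, against 3.11, 3.38 and 3.45 in non-EGFP cells (adjusted p = 0.0451), all below that level, and its call ended with the replicate block (0.088) and without any array (up to 0.142). Ces5a was below the level as well and did not pass. The calls of Ces1e and Ces2e ended without any array other than CCK-EGFP replicate 3 (up to 0.118 and 0.136). The call of Ces1g ended on removal of replicate 1 or 2 of either group (up to 0.106), and Ces1h with any array removed but non-EGFP replicate 3 (up to 0.113).

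**Figure D3:**
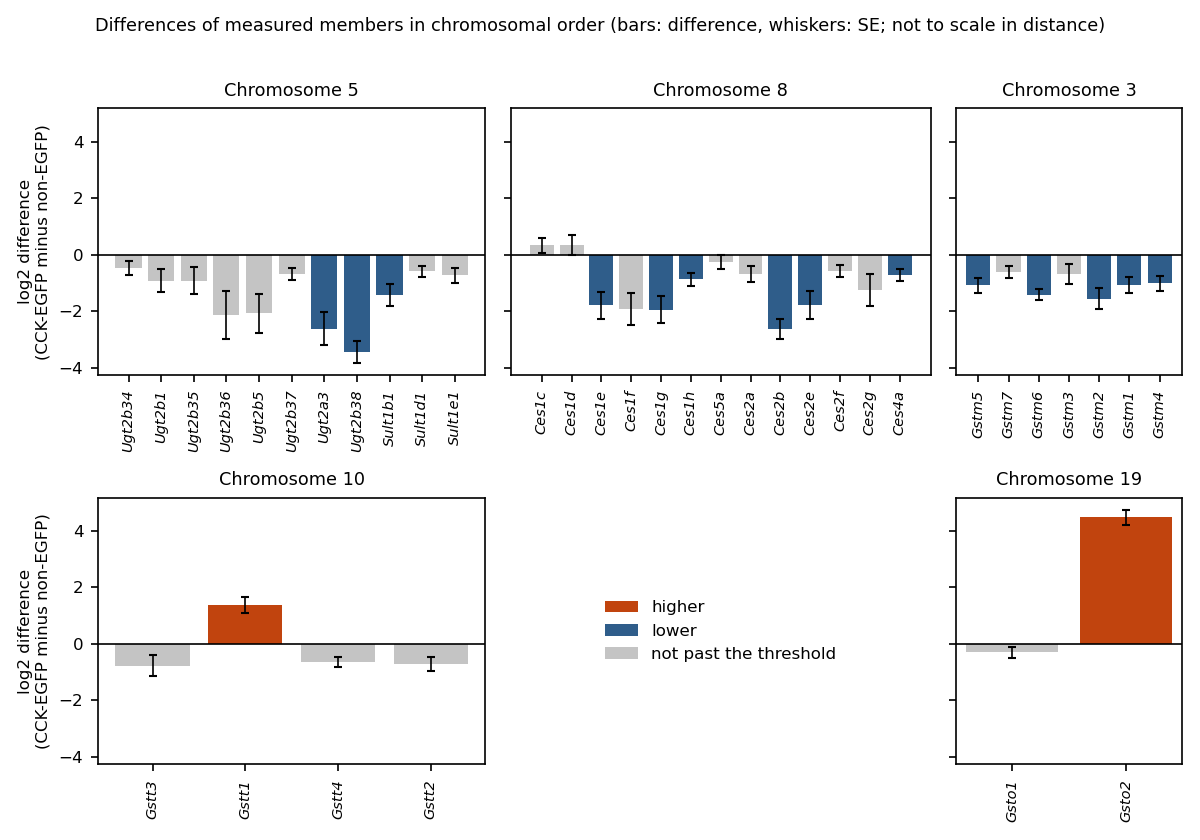
Log2 difference (bars, CCK-EGFP minus non-EGFP, with SE) of members in their order along 5 chromosomes. Ces1c and Ces1d (0.32 and 0.34) stand beside Ces1e to Ces1h (-0.88 to -1.95), and Gstt1 (1.38) and Gsto2 (4.48) stand beside neighbours with estimates below 0.

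The 18 lower genes differed in how CCK-EGFP replicate 3 behaved. In 12 of them it was the highest of the 3 CCK-EGFP arrays (66.7%, against 51.9% of all 1851 lower genes and 33.2% of all genes). It exceeded the mean of replicates 1 and 2 by 1.96 for Ugt2a3, 1.79 for Ces2e, 1.45 for Ces1e, 1.22 for Ces1g, 1.20 for Gsta4 and 1.12 for Sult1b1. The enterocyte marker mean, as given above, was also highest on this CCK-EGFP array. Ugt2b38 (-0.49), Gsta2 (-0.37), Ces4a (-0.26), Ces1h (-0.21) and Gstm5 (-0.19) were instead lower on replicate 3 than on the mean of the other CCK-EGFP arrays. Without CCK-EGFP replicate 3 the test called 19 members lower, 14 of them among the 18, and 1384 of all genes against 1851 on all arrays. The part of the enterocyte marker level in these differences was not tested.

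**Figure D4:**
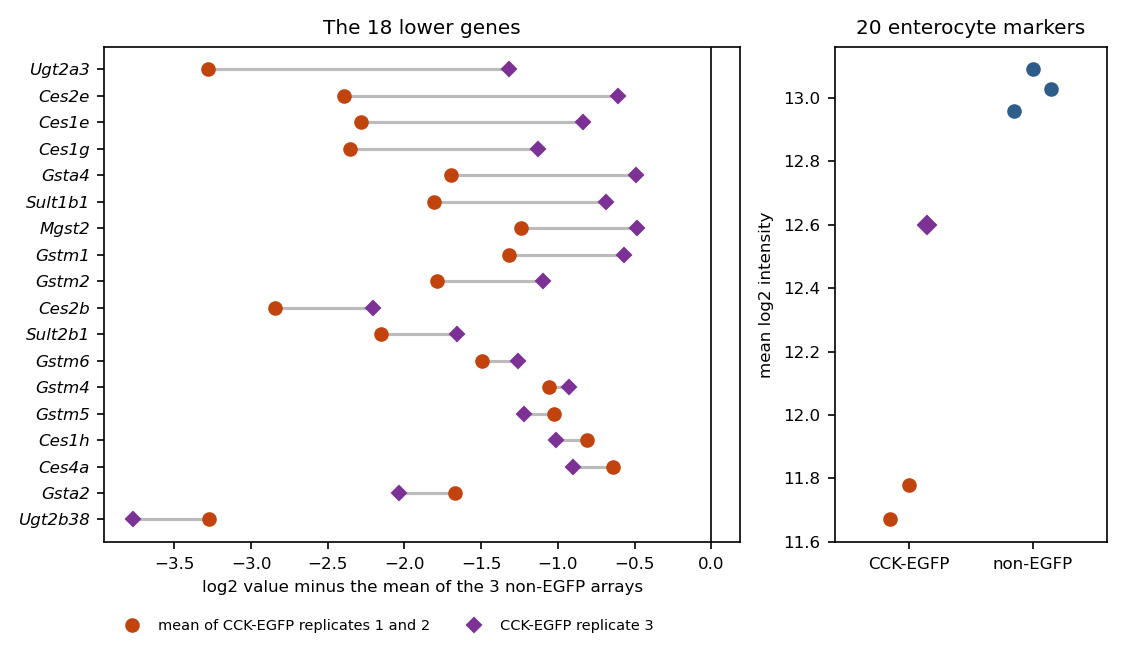
Left, for each of the 18 lower genes, the mean of CCK-EGFP replicates 1 and 2 (circles) and replicate 3 (diamonds), as log2 value minus the non-EGFP mean. Right, mean log2 intensity of 20 enterocyte markers on each array, where CCK-EGFP replicate 3 (diamond, 12.60) lies between the other CCK-EGFP arrays (11.67 and 11.78) and the non-EGFP arrays (12.96 to 13.09).

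The counts of further genes of these pathways are to be read against 10.2% lower and 14.0% higher among all genes, and their median differences against -0.17. Of 14 genes for glutathione synthesis, recycling and breakdown, 5 were lower (35.7%, or 2 with the replicate block) and 1 higher (7.14%), with a median of -0.66. Glutathione synthetase, Gss, read 10.01, 9.19 and 9.25 in CCK-EGFP cells, against 11.57, 11.48 and 11.16 in non-EGFP cells (difference -1.92, adjusted p = 0.00577). The recycling enzyme 5-oxoprolinase, Oplah, fell by 2.42 (adjusted p = 0.00364), and the dipeptidase Dpep1 by 2.06 (0.0437, or 0.0581 with the replicate block). Ggt7, a member of the gamma-glutamyltransferase family, read 8.93, 8.64 and 7.60 in CCK-EGFP cells, against 5.69, 3.97 and 3.72 in non-EGFP cells (adjusted p = 0.00668), at least 3.79 on the log2 scale against the background level, below which its non-EGFP mean lay. The groups of Gss, Oplah, Dpep1 and Ggt7 did not overlap. Glutathione reductase Gsr (0.31, adjusted p = 0.36) and Glo1 (-0.29, 0.259) did not pass. Of 8 glutathione peroxidases (median 0.011), 1 was higher and 1 lower (12.5% each), near the shares of all genes: the secreted enzyme Gpx3 by 3.85 (13.80, 13.62 and 13.36 in CCK-EGFP cells, against 10.19, 9.74 and 9.30 in non-EGFP cells), and the lipid peroxidase Gpx4 by -1.22 (adjusted p = 0.00958).

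For sulfation, 1 of 10 genes was higher and 1 lower (10% each, median -0.33), no larger a share than among all genes. The sulfate transporter Slc13a1 read 10.07, 9.92 and 10.59 in CCK-EGFP cells, against 12.20, 12.27 and 11.57 in non-EGFP cells (difference -1.82, adjusted p = 0.00739). PAPS synthase Papss1 read 11.27, 10.89 and 10.36 in CCK-EGFP cells, against 9.49, 9.64 and 9.48 in non-EGFP cells (difference 1.30, adjusted p = 0.0174), whereas its paralogue Papss2 differed by -0.72 (adjusted p = 0.0992). Both synthases make the sulfate donor. For glucuronidation, 1 of 4 supply genes (median -0.56) was lower, Ugp2 (-0.66, adjusted p = 0.0392, or 0.0761 with the replicate block), and Ugdh, which forms UDP-glucuronic acid, differed by -0.59 (0.059). The calls of Papss1 without CCK-EGFP replicate 1 or 2 (up to 0.0699), of Dpep1 without any array other than CCK-EGFP replicate 3 (up to 0.131) and of Ugp2 without any array (up to 0.131) were lost.

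Of 6 export pumps for conjugates, 3 were higher (50%) and 1 was lower (16.7%), with a median of 1.20. Abcc1, which exports glutathione conjugates, read 9.90, 10.00 and 9.68 in CCK-EGFP cells, against 4.52, 6.79 and 6.60 in non-EGFP cells (difference 3.89, adjusted p = 0.00689). Abcc4 read 7.96, 8.47 and 8.10 in CCK-EGFP cells, against 4.61, 4.62 and 4.23 in non-EGFP cells (adjusted p = 0.000276), at least 3.58 on the log2 scale against the background level. The basolateral pump Abcc3 was higher by 1.25 (adjusted p = 0.0126, or 0.0579 without CCK-EGFP replicate 2). Abcc2, the pump of the apical membrane, read 9.21, 9.08 and 9.94 in CCK-EGFP cells, against 11.26, 11.23 and 11.14 in non-EGFP cells (difference -1.80, adjusted p = 0.00612). No overlap was seen in any of these 4 genes. Abcg2 (-0.42, adjusted p = 0.136) and Abcc5 (1.15, 0.142) did not pass.

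Of 7 enzymes that remove sulfate or glucuronide groups or activate sulfatases, 2 were higher (28.6%, or 1 with the replicate block) and none lower, with a median of 0.75. Arsb, a lysosomal sulfatase of glycosaminoglycans, read 8.74, 9.57 and 9.26 in CCK-EGFP cells, against 6.44, 5.40 and 4.73 in non-EGFP cells (difference 3.67, adjusted p = 0.00333). Sumf2, a homologue of the sulfatase-activating enzyme, was higher by 1.77 (adjusted p = 0.0319, 0.0541 with the replicate block and up to 0.094 without any array other than non-EGFP replicate 3). Beta-glucuronidase, Gusb, did not pass (0.75, adjusted p = 0.233). Among 13 further esterases and epoxide hydrolases, 2 were higher (15.4%) and 1 lower (7.69%, or 2 genes with the replicate block), with a median of -0.45. Acetylcholinesterase, Ache, read 8.47, 8.59 and 8.45 in CCK-EGFP cells, against 5.76, 5.47 and 6.23 in non-EGFP cells (difference 2.69, adjusted p = 0.000967). Ephx4 was at least 2.05 higher against the background level (adjusted p = 0.000465). The soluble epoxide hydrolase Ephx2 fell by 1.14 (0.0404, or 0.0614 with the block and up to 0.127 without any array other than CCK-EGFP replicate 3). Butyrylcholinesterase, Bche, differed by -1.66 and did not pass (adjusted p = 0.0855). Cmbl differed by -1.03 (adjusted p = 0.146, or 0.0496 with the block). Of 13 other conjugating enzymes 3 were lower (23.1%, or 4 genes with the block) and none higher, with a median of -0.42, led by Acsm5 (-2.85, adjusted p = 0.0143) and the arylamine acetyltransferase Nat2 (-1.76, 0.0133, or 0.056 without CCK-EGFP replicate 2). The third, Acsm1, was below the background level in both groups.

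Of 16 regulators known to control these enzymes, 6 were lower (37.5%, or 5 genes with the replicate block) and none higher, with a median of -0.69. The xenobiotic receptor CAR, encoded by Nr1i3, read 7.57, 7.96 and 9.44 in CCK-EGFP cells, against 10.79, 10.90 and 10.75 in non-EGFP cells (difference -2.49, adjusted p = 0.0142). PXR, encoded by Nr1i2, read 6.91, 7.79 and 7.60 in CCK-EGFP cells, against 9.05, 9.52 and 8.45 in non-EGFP cells (difference -1.57, adjusted p = 0.0243). Their dimer partner Rxra fell by 1.28 (0.0214) and the enterocyte factor Hnf4g by 1.50 (0.0174), while Hnf4a differed by -0.17 (0.45) and the vitamin D receptor Vdr by -0.64 (0.111). In each of the 4 lower genes named the groups were separate. Without single arrays the calls were lost for Nr1i3 (CCK-EGFP replicate 2, 0.0594), Hnf4g (CCK-EGFP replicate 2 or non-EGFP replicate 2, up to 0.0665), and Nr1i2 and Rxra (replicate 1 or 2 of either group, up to 0.0748 and 0.0848). Of 9 other target genes of NRF2, the factor behind much glutathione transferase induction, 3 were lower (33.3%) and none higher, with a median of -0.34. The lower ones were Srxn1 (-1.31), Taldo1 (-0.80) and Tkt (-0.79). The calls of Srxn1, Taldo1 and Tkt ended with the replicate block (adjusted p up to 0.0597) and without replicate 1 or 2 of either group (up to 0.106), and that of Taldo1 also without CCK-EGFP replicate 3.

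RefSeq promoter windows were given for 50 of the 58 genes, 61 windows in all, and the 250 bases before each start were searched on both strands for 7 motifs chosen with the results known. The antioxidant response core TGACNNNGC bound by NRF2 was found in 6.56% of the members' windows (Gsta3, Gstm5, Gstm7 and Mgst1), against 10.2% of all 32851 windows. The xenobiotic response core GCGTG of the aryl hydrocarbon receptor was found in 16.4% against 28.2%. The E box CAGATGG was found in 8.20% (Ces2e, Ces2f, Gstm6, Gsto2 and Ugt2b36) against 4.44%. The HNF1 core GTTAAT was found in 9.84% (Ces5a, Gsta3, Sult1a1, Sult1d1, Ugt2a3 and Ugt3a1) against 6.43%. Of these genes only Ugt2a3 was lower. The CDX2 motif TTTATG was found in 14.8% against 10.8%, and the TATA box TATAAA in 16.4% against 12.4%. CAAAGTCCA, a strong HNF4A site, was in none of the members' windows and in 0.384% of all. These are matches of letters and were not tested.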

How the data were processed

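The authors deposited log2 values of 45101 probe sets on 6 arrays, made with RMA per the submitters' processing notes, that is, background correction, quantile normalization between arrays and probe set summary. The RMA version is not given in the sources used here. RNA was amplified from picogram amounts per the labels' protocols, which can add variation at low levels, and RMA gives no detection call. Array medians were 5.66, 5.66 and 5.72 for CCK-EGFP and 5.37, 5.37 and 5.54 for non-EGFP cells. Pyruvate carboxylase controls differed (3' minus 5' end) by 2.36, 2.45 and 3.07 on CCK-EGFP arrays, against 4.26, 4.38 and 4.26 on non-EGFP arrays. For the beta-actin, Gapdh and transferrin receptor controls the groups overlapped. The effect of these end differences on the calls was not tested. Quantile normalization can reduce a broad shift between groups. The number of arrays limits the precision.

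Names came from the platform annotation, and 34945 probe sets had 1 symbol, 932 several and 9160 none. Probe sets with several names were left out, and 6 of them held a name of these families. The comparison was a moderated linear model (limma 3.58.1, R 4.3.3) over 18193 genes without a block, two-sided, with Benjamini-Hochberg adjustment and a threshold of 0.05, checked on simulated data. Where a group mean lay below the background level of 4.60, the fold was taken against that level as a lower bound. Members, lists and motifs were chosen with earlier results of these data known. By rule, values on each array are printed per family for up to 8 genes past the threshold by size and 4 not past it by mean, and each other list names up to 4 and 2. Gene order and promoters came from RefSeq tables (GRCm38.p6). Arrays of the same replicate number deviated together from their group means across genes (r = 0.27, 0.159 and 0.219). The labels do not explain these numbers. They were taken as pairs in the block fit only, and the main calls and adjusted p values leave the pairing out. Block results are given where a named call or a count of calls changed. Alternatives were the block, 2 filters on dim genes, a trended robust prior, centring on medians, array weights, probe sets averaged or each alone, quantile normalization once more, treat at 0.5, and leaving out each array. Tables and figures used Python 3.11.15, numpy 2.4.6, pandas 2.3.3 and matplotlib 3.10.9.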

Additional observations from a re-analysis of the deposited data

How the results depend on the processing

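The 2 higher members became 1 with treat, which tests against a log2 difference of 0.5, and ranged from 1 to 2 when 1 array was left out. The 18 lower members became 28 with arrays centred on their medians, 11 with each probe set tested alone and 6 with treat, and ranged from 5 to 19 when 1 array was left out. Over all genes, the 2540 higher became 3981 (of 45037 probe sets) with each probe set tested alone and 1487 with treat, and ranged from 1365 to 2486 without 1 array. The 1851 lower became 3611 with centring, 3285 with each probe set alone and 487 with treat, and ranged from 505 to 1962 without 1 array. No called member changed sign in any alternative. With the replicate number as a block, 17 members were lower and 2 higher, and beside the calls named in the results it changed none of the members' calls.

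Sign changes were seen in 7 genes that had not passed. Mgst3 gave 0.038 with array weights and 0.018 with a second quantile normalization, and ranged from -0.13 to 0.068 when 1 array was left out (0.068 without CCK-EGFP replicate 3 and 0.066 without non-EGFP replicate 3). Sult1a1 ranged from -1.05 to 0.23 (0.13 without CCK-EGFP replicate 1 and 0.23 without non-EGFP replicate 2). Sult2a2 gave 0.14 with the second quantile normalization and ranged from -0.23 to 0.041 (without non-EGFP replicate 2), and Ces1d ranged from -0.061 (without non-EGFP replicate 1) to 0.56. Sult3a1 gave 0.081 with the second quantile normalization, Sult4a1 -0.067 with the mean of all probe sets and Sult6b1 -0.031 with centring. The cause was not tested, and treat is stricter by construction. Signals near the background level limit what can be said of the 13 members below it in both groups.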

Other observations

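The Ugt1 genes share their last exons, and the probe sets for them carry several names, so they could not be read gene by gene and do not enter the 58. The 3 probe sets that name the Ugt1a genes together gave means of 11.67, 10.57 and 12.47 in CCK-EGFP cells, against 12.27, 11.37 and 12.87 in non-EGFP cells. Their differences were -0.60, -0.80 and -0.40, with every CCK-EGFP array below every non-EGFP array in each set, and none passed when each probe set was tested alone (limma adjusted p = 0.12, 0.108 and 0.229). A probe set shared by Ces3a and Ces3b averaged 8.93 in CCK-EGFP cells, against 8.57 in non-EGFP cells (difference 0.36, adjusted p = 0.364). The set shared by Gsta1, Gsta2 and Gm3776 averaged 11.46 in CCK-EGFP cells, against 12.47 in non-EGFP cells (difference -1.01, adjusted p = 0.148), where the set for Gsta2 alone differed by -1.79. The set shared by Ugt2a1 and Ugt2a2, the genes between Ugt2b38 and Sult1b1, lay below the background level in both groups.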
